A study of Mus musculus with 5 samples.

Results

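Excitatory neurons of the embryonic mouse cortex at E13.5 (E for embryonic day) were taken from 1 Drop-seq library of wild-type CD1 mice. In Drop-seq each cell shares a droplet with a bead whose primers carry a cell barcode, and each captured RNA molecule is counted once by its unique molecular identifier (UMI). The neurons were chosen from the deposited table of cortical cells by their counts of 11 transcripts: a cell needed at least 500 UMIs, at least 3 UMIs of Neurod2 and Neurod6 together, at most 1 of Sema3c, Unc5d and Neurod1 together, none of Eomes, and at most 1 of Pax6, Sox2, Hes1, Hes5 and Slc1a3 together. This left 453 of the 1137 cells (39.8%, exact Clopper-Pearson 95% interval 37.0 to 42.8%), out of 6390 cells in the cortical tables of the series. The labels name dissected, dissociated cortices and a viability sort at each age but E11.5. Other ages were E11.5, E15.5 (2 batches in 1 table) and E17.5, all of the same strain, with no treatment or mutation named. The labels do not say how many embryos were pooled. With 1 library at E13.5 there is no replicate, so each value below carries counting error only and no test between groups was made.

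Excitatory neurons of the cortex use glutamate and send long axons, either to other cortical areas or to targets below the cortex. They arise from radial precursors at the ventricle, often through Eomes-positive intermediate progenitors, migrate outward and settle in layers, the deep layers first and the upper layers later. Neurod2 and Neurod6 are transcription factors of the basic helix-loop-helix family that mark these neurons after their last division. Tbr1, Bcl11b, Fezf2 and Sox5 are transcription factors known for deep-layer neurons, with Tbr1 tied to corticothalamic and Bcl11b and Fezf2 to subcerebral projections.

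Basic helix-loop-helix factors bind short motifs called E-boxes. The 250 bases before the RefSeq transcription start of the genes whose counts defined the neurons are shown here because each cell entered on these transcripts. They lie on the minus strand of GRCm38.p6 at chr6:55681264-55681513 and chr11:98329646-98329895 and are written 5′ to 3′ with the E-boxes CAGATG (or CATCTG, the same site on the other strand) and CAGCTG in capitals.

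Neurod6: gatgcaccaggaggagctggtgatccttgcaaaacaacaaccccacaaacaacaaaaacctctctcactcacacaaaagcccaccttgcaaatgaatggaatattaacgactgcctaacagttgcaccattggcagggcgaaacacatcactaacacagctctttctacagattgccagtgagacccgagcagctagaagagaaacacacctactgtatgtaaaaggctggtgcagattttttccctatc
Neurod2: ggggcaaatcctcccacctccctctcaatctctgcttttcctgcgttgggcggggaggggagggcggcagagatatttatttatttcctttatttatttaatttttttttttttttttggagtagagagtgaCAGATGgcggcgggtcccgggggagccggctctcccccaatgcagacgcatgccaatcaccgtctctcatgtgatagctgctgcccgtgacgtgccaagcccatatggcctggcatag

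The Neurod2 window held 1 CAGATG and the Neurod6 window held neither motif. Of 32851 RefSeq promoter windows of this length, 14.4% held CAGATG on either strand, 13.0% held CAGCTG and 25.5% held at least 1 of them. A match describes letters only, since nothing in these data measured binding.

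The neurons carried 1316993 UMIs in all, between 510 and 9546 per cell with a median of 2565, and a median of 1491 genes per cell. The 684 other cells of the table carried 1729009 UMIs with a median of 2123 per cell and 1315 genes. Thinned to 1000 UMIs per cell, the median was 739 genes in 410 neurons and 752 in 578 other cells, with 43 neurons and 106 other cells too shallow to be thinned. No cell barcode was shared with the cortical tables of other ages, and 24 barcodes of the E13.5 table, 14 of them neurons, lay within 1 base of another. A UMI was found in the neurons for 13906 of the 17082 genes listed. Markers of other cell types were scarce in the neurons: 14 UMIs of the 13 endothelial and pericyte genes, 4 of the 11 microglia genes and 5 of the 10 meninges genes, with Cldn5, Pecam1, C1qa, Csf1r and Col1a1 at 0. The 17 interneuron genes summed to 136 UMIs in 74 neurons (103 CPM, the UMIs of a gene summed over a group and scaled to the same total UMIs for every group) against 260 CPM in the other cells, with Lhx6 and Nkx2-1 at 0, and 16 neurons held 2 or more of these UMIs. Hemoglobin and other erythroid genes summed to 400.1 CPM in the neurons and 804 CPM in the other cells, with medians of 291 and 362 CPM per cell and 1 other cell at 252549 CPM. The part of these transcripts in the results below was not tested.

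The 684 other cells were a mixed group. In 287 the neuronal and precursor criteria were met and Eomes or the sum of Sema3c, Unc5d and Neurod1 was too high, and these are called the nearest neuronal cells. A further 142 cells had at least 3 UMIs of the 5 precursor genes and at most 1 of Neurod2 and Neurod6, and these are called precursor-marked cells. In this group the 17 interneuron genes summed to 420 CPM, with a UMI in 74 cells (52.1%), against 103 CPM in the neurons. Cells with too few Neurod2 and Neurod6 UMIs and no other failing numbered 71 and had a median of 909 UMIs, and 12 cells fell under 500 UMIs. Near the limits, 23 neurons had exactly 3 Neurod2 and Neurod6 UMIs while 15 cells had 2 and met all else. At the limit for Sema3c, Unc5d and Neurod1, 92 neurons had 1 UMI and 50 excluded cells had 2, so that this criterion touched more cells than the others. Eomes excluded 26 cells with 1 UMI, and 29 neurons had 1 UMI of the precursor genes against 5 excluded cells with 2. At E15.5 the same criteria chose 1674 of 2955 cells (56.7%, 54.8 to 58.4%) and at E17.5 497 of 880 (56.5%, 53.1 to 59.8%). At E11.5 they chose 9 of 1418 cells (0.635%, 0.291 to 1.20%).

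Neurod6 was the more widely detected of the defining pair. Neurod2 and Neurod6 together gave 3 to 53 UMIs per neuron with a median of 14 and quartiles of 9 and 21. Neurod6 was present in each of the 453 neurons (1 to 48 UMIs, median 10). Neurod2 was present in 414 (median 4) and at 0 in the other 39. Summed levels were 3987 CPM for Neurod6 (exact Poisson 95% interval 3880 to 4096) and 1464 CPM for Neurod2 (1399 to 1531). The nearest neuronal cells had 3650 CPM of Neurod6 and 1299 CPM of Neurod2, so the neurons and the nearest cells differed little in the genes that set both apart from precursor-marked cells (52.8 and 34.4 CPM). These levels follow from the choice of cells and are a description.

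The other markers named for these cells were not used to choose them. Bcl11b was found in 362 neurons (79.9%, 75.9 to 83.5%) with 0 to 26 UMIs per cell and a median of 2, and in 37.6% of the other cells. Sox5 was found in 324 neurons (71.5%, 67.1 to 75.6%) and in 33.0% of the other cells. Tbr1 was found in 265 neurons (58.5%, 53.8 to 63.1%) with a median of 1 UMI, and in 23.8% of the other cells. Fezf2 was found in 245 neurons (54.1%, 49.4 to 58.7%) and in 25.3% of the other cells. The markers thus fit the label of excitatory neurons. None of Neurod2, Neurod6, Tbr1 and Bcl11b passed 2-fold against the nearest neuronal cells, which met the same minimum of Neurod2 and Neurod6. At that limit these markers do not tell the neurons from those cells. Most measured intermediate progenitor genes and all measured G2/M genes were higher in the nearest cells, as given below. Slc17a6, a vesicular glutamate transporter gene, was lower in the neurons than in the other cells, as given below. In precursor-marked cells, at a median depth of 2664 UMIs, a UMI was found in 1.41% for Tbr1, 21.1% for Sox5, 21.8% for Bcl11b and 25.4% for Fezf2. After thinning to 1000 UMIs per cell the neurons had Bcl11b in 59.0%, Sox5 in 51.5%, Tbr1 in 35.6% and Fezf2 in 33.4% of 410 cells, and the precursor-marked cells 8.21%, 13.4%, 0% and 10.4% of 134.

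**Figure D1:**
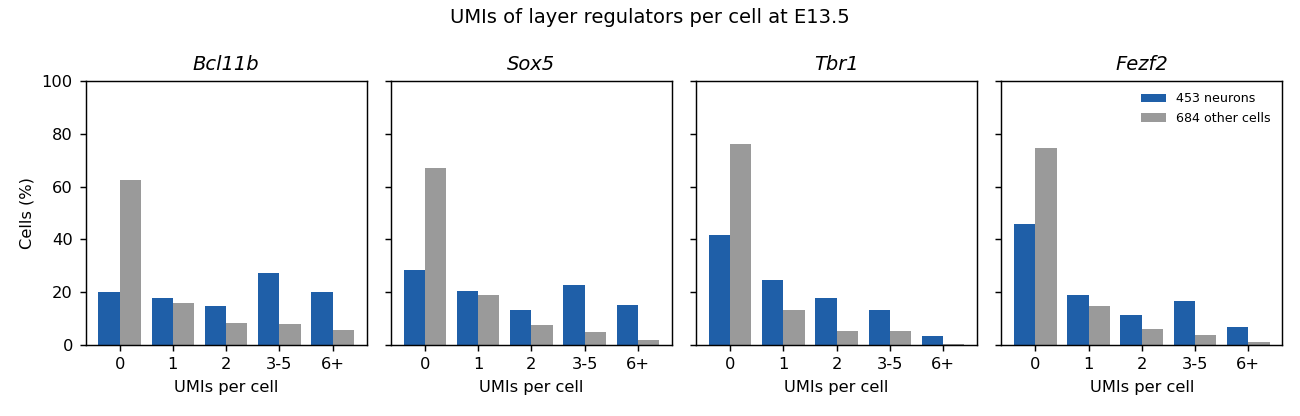
Share of cells (%, vertical axis) by the number of UMIs they held (horizontal axis) for Bcl11b, Sox5, Tbr1 and Fezf2 in the 453 neurons (blue) and the 684 other cells (grey) of the E13.5 table. For Bcl11b 91 neurons held no UMI against 427 other cells.

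Layer regulators were often found in the same cells. Bcl11b was found in 227 of the 265 neurons with Tbr1 (85.7%) and in 223 of the 245 with Fezf2 (91.0%), against 79.9% of all neurons. Pou3f2, a POU factor of upper-layer neurons, was found in 93 neurons (20.5%), of which 72 (77.4%) also held Bcl11b, 56 (60.2%) Sox5, 52 (55.9%) Tbr1 and 36 (38.7%) Fezf2. Over all neurons the shares as counted were 79.9%, 71.5%, 58.5% and 54.1%, each above the share in the neurons with Pou3f2. After thinning to 1000 UMIs, 42 neurons held Pou3f2, of which 54.8% held Bcl11b, 42.9% Sox5, 38.1% Tbr1 and 16.7% Fezf2. The shares over all thinned neurons were 59.0%, 51.5%, 35.6% and 33.4%, so the order did not hold for Tbr1 at equal depth. Reln, made by Cajal-Retzius cells of the marginal zone, was found in 15 neurons, and Nr4a2, a subplate marker, in 13, numbers too small to read their overlap. Joint detection depends on depth: after thinning to 1000 UMIs, 93 of 146 cells with Tbr1 (63.7%) held Bcl11b, against 59.0% of all thinned neurons.

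Neurons with and without a UMI of Bcl11b differed in other layer genes and in genes outside the layer lists. The 362 neurons with Bcl11b had a median depth of 2882 UMIs and the 91 without it 1503, so cells were sorted in part by depth. The deep-layer list without Bcl11b summed to 8258 CPM (8094 to 8425) in the cells with Bcl11b and 6241 (5849 to 6653) in those without. The upper-layer list summed to 1817 CPM (1741 to 1896) and 2544 (2296 to 2812). Outside these lists, Neurod2 and Neurod6 together were at 5338 CPM (5206 to 5472) with Bcl11b and 6328 (5933 to 6742) without. The precursor and intermediate progenitor lists summed to 1906 CPM (1827 to 1986.5) and 2332 (2095 to 2589). Gap43 was at 1553 CPM (1482 to 1626) and 914 (768 to 1080), and Stmn2 at 3309 (3206 to 3415.5) and 2677 (2422 to 2951). Whether the layer genes differed apart from these was not tested.

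All 40 UMIs of Crym, a thyroid hormone-binding protein of corticofugal neurons, came from cells with Bcl11b, which carried 1166067 of the UMIs against 150926 in the cells without. Tle4, a corepressor of corticothalamic neurons, was at 124 CPM (105 to 146) with Bcl11b and 26.5 (7.22 to 67.9) without. Fezf2 was at 596 CPM (553 to 642) and 232 (162 to 323), and Sox5 at 948 (893 to 1005) and 530.1 (420.3 to 659.7). Not every deep-layer gene followed the split: Tbr1 was at 444 CPM (407 to 484) and 484 (379 to 608), and Ldb2 was at 155.2 CPM (133 to 180) with Bcl11b and 278 (201 to 376) without. Pou3f2 was at 103 CPM (85.3 to 123) in cells with Bcl11b and 219 (151 to 307) in those without. Not every upper-layer gene was lower with Bcl11b. Mef2c was at 365.3 CPM (331.5 to 401.7) with Bcl11b and 265.03 (189.3 to 360.9) without. Rorb was at 81.5 CPM (65.9 to 99.6) and 26.5 (7.22 to 67.9), with overlapping intervals for both genes. Lpl differed little, at 199.8 and 192.15 CPM. Cntn2, an axonal adhesion molecule also known as TAG-1, was at 475 CPM (436 to 516) and 656 (533 to 799). The pleiotrophin gene Ptn was at 303 CPM (272 to 336) and 484 (379 to 608), and the semaphorin receptor gene Nrp1 at 114.9 CPM (96.3 to 136) and 205 (139.6 to 292).

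Against all other cells of the table, the neurons had higher levels of most listed genes of the neuronal cytoskeleton, synapses, membrane excitability and deep layers, and lower levels of cell cycle and precursor genes. Of 7953 genes with at least 50 UMIs over both groups, 592 (7.44%) were at least 2-fold higher and 847 (10.7%) at least 2-fold lower in the neurons, and the median log2 ratio was -0.08. The cells were chosen on transcripts that vary with these genes, so the ratios describe the group and are no test of it. Ratios are given with exact 95% counting intervals, or, where a group had no UMI, as a lower bound from a floor of 3 UMIs over that group.

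Among the genes with the largest ratios, Ndrg1 stood at 144 CPM in the neurons and 13.3 CPM in the other cells, 10.8-fold higher (7.02 to 17.52). A UMI of Ndrg1 was found in 23.0% of the neurons and 3.07% of the other cells. Cdh13, a cadherin anchored to the membrane by a lipid, was at 285 and 45.7 CPM (6.23-fold, 4.88 to 8.05) and found in 42.4% of the neurons. Mc4r, the melanocortin 4 receptor, was at 134 and 21.98 CPM (6.12-fold, 4.29 to 8.93) and found in 17.0%. Sla, Glra2 (a glycine receptor subunit), Ldb2 (a cofactor of LIM domain factors), Plk2, Dync1i1 (a dynein subunit), Cygb (cytoglobin) and Nin (ninein, a centrosomal protein) were 4.90- to 7.61-fold higher. These genes were each detected in part of the neurons, and with no other library their spread between animals is unknown.

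Cytoskeletal genes of growing neurons were mostly higher. Of 24 measured genes of the neuronal cytoskeleton list, 18 were at least 2-fold higher and none lower, with a median log2 ratio of 1.23. The list as fixed, here and below, also holds Actl6b, a chromatin subunit. It is among the 18 and is counted again with the chromatin genes. Ina, the neurofilament protein alpha-internexin, was at 868 and 197 CPM (4.40-fold, 3.90 to 4.98). Mapt, the microtubule protein tau, was at 951 and 238 CPM (3.99-fold, 3.57 to 4.47), Gap43, a growth cone protein, at 1480 and 383 CPM (3.86-fold, 3.53 to 4.22), and Stmn2 at 3237 and 853 CPM (3.79-fold, 3.58 to 4.03). Of 16 genes known from newborn migrating neurons, 8 were higher and none lower. They included the reelin pathway genes Dab1 (594 and 185 CPM) and Vldlr (68.3 and 19.7 CPM), while the small GTPase gene Rnd2 was at 213 and 209.9 CPM. Of 35 axon guidance and adhesion genes 12 were higher, among them Robo1 (169 and 41.6 CPM) and Chl1 (282 and 79.8 CPM), 2 were lower and 21 were neither.

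Genes of synapses and of excitability were mostly higher too. Of 24 synaptic vesicle genes 16 were higher and 1 was lower (median log2 ratio 1.23), of 21 receptor and postsynaptic genes 14 and 1 (1.27), and of 18 ion channel and transporter genes 13 and 0 (1.39). Syt1, the calcium sensor of vesicle release, was at 182 and 33.5 CPM (5.43-fold, 4.06 to 7.37). Grin2b, an NMDA receptor subunit, was at 117 and 22.6 CPM (5.18-fold, 3.63 to 7.57), and Gria1, an AMPA receptor subunit, at 106 and 26.0 CPM (4.08-fold, 2.90 to 5.85). Cacna1b, the N-type calcium channel, was at 35.7 and 4.63 CPM (7.71-fold, 3.61 to 18.9). The lower receptor gene was Grik2, a kainate receptor subunit, with 24 UMIs in the neurons and 65 in the other cells (2.06-fold lower, 1.27 to 3.45). The lower vesicle gene was Slc17a6, the vesicular glutamate transporter VGLUT2, at 35.7 CPM in the neurons and 117 CPM in the other cells, 3.27-fold lower (2.37 to 4.60). In the nearest neuronal cells Slc17a6 was at 209.9 CPM, 5.88-fold (4.22 to 8.34) above the neurons.

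Deep-layer genes were mostly higher and upper-layer genes divided. Of 16 measured deep-layer genes (of 21 listed) 11 were higher and 1 lower, with a median log2 ratio of 1.41. Ldb2 was at 169 and 28.3 CPM (5.97-fold, 4.37 to 8.32), Lmo3 at 182 and 44.5 CPM (4.09-fold, 3.15 to 5.36), Sox5 at 899.8 and 269.5 CPM (3.34-fold, 2.997 to 3.72), Fezf2 at 554 and 190.3 CPM (2.91-fold, 2.55 to 3.33) and Bcl11b at 1169 and 438 CPM (2.67-fold, 2.44 to 2.91). Foxp2 was the deep-layer gene with a lower level, at 12.9 and 37.0 CPM. Of 15 upper-layer genes 4 were higher, among them Lpl (199 and 49.7 CPM) and Mef2c (354 and 106 CPM). In the same list 8 were lower, among them Cux1 (48.6 and 165 CPM) and Lhx2 (80.5 and 247 CPM). Precursors also express both genes, and the part of that in the lower levels was not tested. The subplate and Cajal-Retzius lists had 5 and 2 measured members, too few to describe as groups. Nxph3 was at 34.9 and 6.94 CPM, Nxph4 at 58.5 and 48.0 CPM, and the 6 measured interneuron genes had 0 higher and 3 lower.

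**Figure D2:**
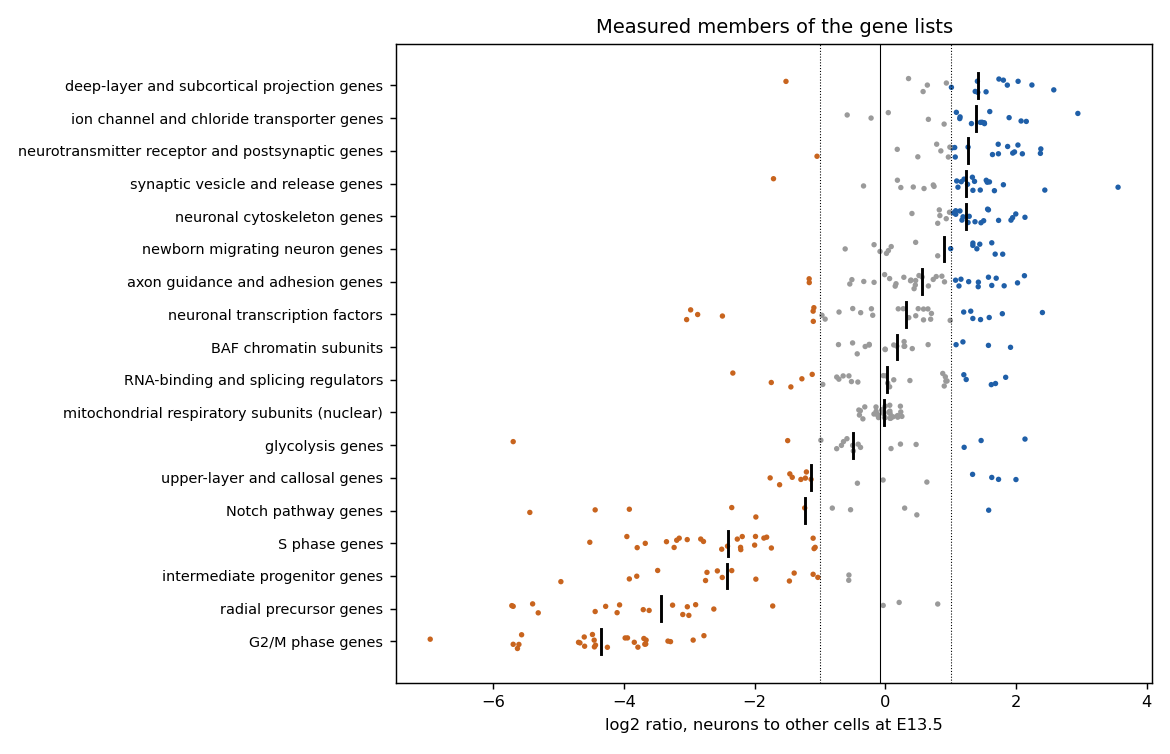
Log2 ratio of the summed level in the 453 neurons to that in the 684 other cells (horizontal axis) for each measured member of 18 gene lists (rows), with black bars at list medians, dotted lines at 2-fold and a thin line at the median of all 7953 genes. Blue points are at least 2-fold higher and orange points at least 2-fold lower. The 26 G2/M genes all lie on the lower side and the 32 respiratory subunits all lie between the dotted lines.

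Cell cycle and precursor genes were low. All 26 measured G2/M genes and all 25 measured S phase genes were at least 2-fold lower, with median log2 ratios of -4.34 and -2.41. Kif23, a kinesin of cell division, had 1 UMI in the neurons and 164 in the other cells (ratio of neurons to others 0.00801, 0.000201 to 0.0452), and Nusap1, a spindle protein, had 5 and 311. The S phase gene Mcm3, part of the replicative helicase, was at 4.56 and 105 CPM. Of 20 radial precursor genes outside the defining set, 17 were lower and none higher (median log2 ratio -3.43). Sox9 was at 5.32 and 211 CPM and Aldoc at 4.56 and 236 CPM. Ednrb, the endothelin B receptor, had no UMI in the neurons and 166 in the other cells, at least 42.1-fold lower on a floor of 3 UMIs over the group. Of 16 intermediate progenitor genes 14 were lower and none higher, including Neurog2 (50.9 and 569 CPM) and Mfng (9.11 and 138 CPM). Since Eomes and precursor transcripts were excluded by the choice of cells, the low levels of genes that vary with them are not independent of that choice.

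Further genes with the smallest ratios included those of other functions. Rcn1, a calcium-binding protein of the endoplasmic reticulum, had 0 UMIs in the neurons and 193 in the others (at least 49.0-fold lower), and Dct, a melanin pathway enzyme, had 0 and 90 (at least 22.9-fold lower). Rgcc had 1 and 255 UMIs, Pbk, a mitotic kinase, 2 and 242, and Zfp36l1, which promotes mRNA decay, 2 and 218. Gas1 was at 5.32 and 247 CPM and Prc1, which organises the spindle midzone, at 3.04 and 173 CPM.

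Chromatin, RNA-binding, Notch, metabolic and immediate early genes were described from fixed lists too. The BAF complex remodels chromatin and exchanges subunits when precursors become neurons. Of 19 measured subunits 4 were higher, Dpf1 (282 and 74.6 CPM), Actl6b (238 and 79.8 CPM), Ss18l1 (69.9 and 30.7 CPM) and Smarca2 (467 and 220.4 CPM), and none was lower. The first 3 are subunits known from neurons, and Actl6a, the precursor counterpart of Actl6b, was at 106 and 174.7 CPM (1.64-fold lower, 1.34 to 2.02). Among 28 RNA-binding regulators 5 were higher, including Rbfox1 (286 and 79.8 CPM), and 5 were lower, including Qk (29.6 and 149 CPM). Of 11 Notch pathway genes 6 were lower and 1, Dner (166 and 55.5 CPM), was higher, with a median log2 ratio of -1.23. Of 17 glycolysis genes 3 were higher and 2 lower: Eno2, the neuronal enolase, was at 60.7 and 21.98 CPM, and Eno1, its widely expressed counterpart, at 82.8 and 233 CPM. None of 32 nuclear respiratory subunits and none of 7 mitochondrially encoded genes passed 2-fold in either direction. Among 9 immediate early genes 4 were lower, including Fos (65.3 and 146 CPM) and Jun (168 and 422 CPM), and 1, Klf6 (105 and 44.0 CPM), was higher.

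**Figure D3:**
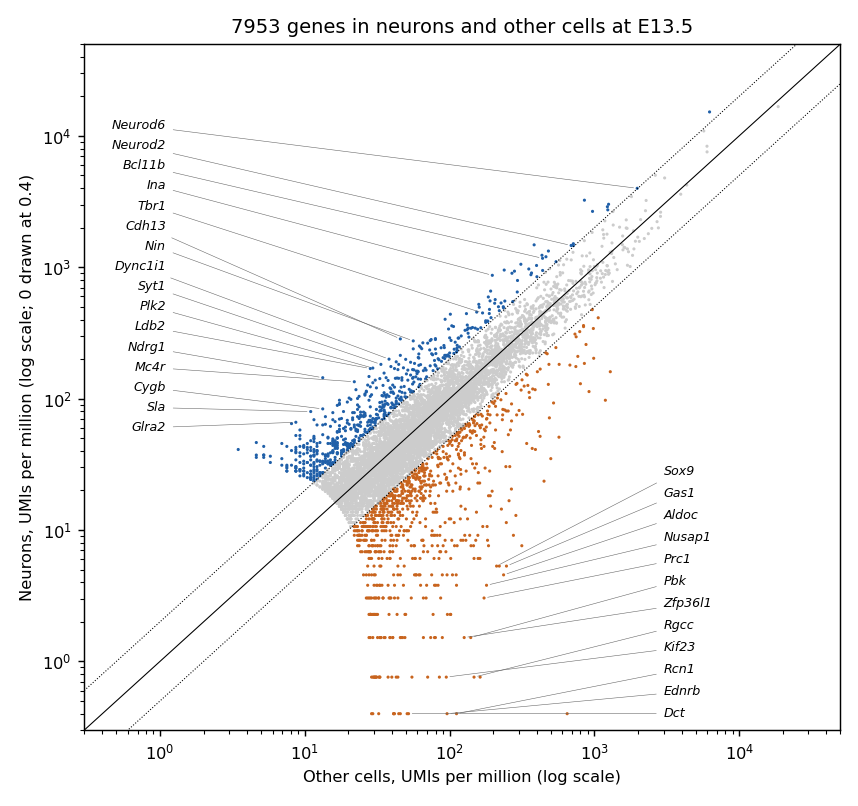
Summed level in the 453 neurons (vertical axis, CPM, log scale, with 0 drawn at 0.4) against the 684 other cells (horizontal axis, CPM, log scale) for 7953 genes. Blue points are at least 2-fold higher in the neurons, orange at least 2-fold lower, and the genes with the largest and smallest ratios are labelled. The orange point at 0 in the neurons and farthest to the right is Eomes, which the choice of cells set to 0.

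The nearest neuronal cells were near the neurons in Neurod2 and Neurod6, had a median depth of 2180 UMIs and differed in fewer genes. Of 6492 genes 263 (4.05%) were at least 2-fold higher in the neurons and 268 (4.13%) at least 2-fold lower, with a median log2 ratio of -0.02. Deep-layer genes were higher in 6 of 15 and lower in none (median log2 ratio 0.81): Hs3st4 was 3.83-fold higher (2.08 to 7.71), Ldb2 3.63-fold (2.52 to 5.37), Lmo3 3.24-fold (2.32 to 4.63) and Sox5 2.41-fold (2.11 to 2.76). Bcl11b was at 1169 CPM in the neurons and 745 CPM in the nearest cells, and Tbr1 at 449 and 309 CPM, below 2-fold in both cases. Upper-layer genes were higher in 2 of 13 and lower in 7. Pou3f2 was at 116 and 359 CPM (3.09-fold lower, 2.52 to 3.80), Lhx2 at 80.5 and 269 CPM and Cited2 at 98.0 and 332 CPM, while Lpl was at 199 and 59.0 CPM.

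Among named genes, Ndrg1 was 8.09-fold higher in the neurons than in the nearest cells (4.62 to 15.47), Nin 4.55-fold (3.32 to 6.38), Cdh13 3.92-fold (2.93 to 5.33) and Dab1 3.09-fold (2.58 to 3.73). S100a10, the light chain of calpactin, was at 52.4 and 4.12 CPM, with 3 UMIs in the nearest cells (12.7-fold, 4.18 to 63.2). B3gat1, which builds the HNK-1 carbohydrate of neural adhesion molecules, was 4.01-fold higher (2.61 to 6.43), and Lrrtm1, a synaptic adhesion gene, 4.17-fold (2.57 to 7.12). Car11, Ldb2, Dync1i1, Sparcl1 and Syt1 were 3.47- to 6.37-fold higher. Of 24 cytoskeletal genes 6 were higher and none lower, of 17 receptor genes 8 and 0, and of 16 channel genes 6 and 0. Gap43 was at 1480 and 568 CPM (2.61-fold, 2.34 to 2.90).

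Genes of intermediate progenitors, the cells that Eomes marks, were lower than in the nearest cells, a difference that the limit on Eomes bears on. Of 14 such genes outside the defining set 13 were lower and none higher, with a median log2 ratio of -2.11. Mfap4 was at 9.11 and 185 CPM (20.3-fold lower, 11.3 to 40.3), Mfng, a glycosyltransferase that modifies Notch, at 9.11 and 173 CPM, Sstr2, a somatostatin receptor, at 28.1 and 357 CPM, and Neurog2 at 50.9 and 551 CPM. Zbtb20 was at 56.2 and 355 CPM (6.32-fold lower, 4.87 to 8.30) and the growth factor gene Mdk at 113 and 739 CPM. All 8 measured G2/M genes were lower, with Top2a at 23.5 and 166 CPM. Abcd2, Btbd17, Spc25, Zfhx4 and Uaca were 9.84- to 13.2-fold lower. The transmembrane receptor gene Nrp1 (125 and 281 CPM) and the ephrin receptor gene Epha4 (128 and 324 CPM) were among 5 lower members of the axon guidance list, in which 7 of 32 were higher.

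Precursor-marked cells gave the widest contrast. Of 6159 genes 1168 (19.0%) were at least 2-fold higher in the neurons and 796 (12.9%) at least 2-fold lower. Tbr1 was at 449 CPM in the neurons and had 2 UMIs in the precursor-marked cells (97.7-fold, 26.9 to 809). Mapt was 51.8-fold higher (26.2 to 120.2), Myt1l, a zinc finger factor of neurons, 49.4-fold (21.1 to 153), Cntn2 43.2-fold (18.4 to 133) and Nsg2, an endosomal protein of neurons, 35.0-fold (20.8 to 64.2). Bend6, Plk2 and Bhlhe22 had no UMI in the precursor-marked cells and were at least 25.5-, 24.8- and 23.7-fold higher. Actl6b had 314 UMIs in the neurons and 1 in the precursor-marked cells (104-fold, 18.5 to 4114). Of 14 deep-layer genes 13 were higher and none lower, and of 14 upper-layer genes 5 were higher and 6 lower.

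**Figure D4:**
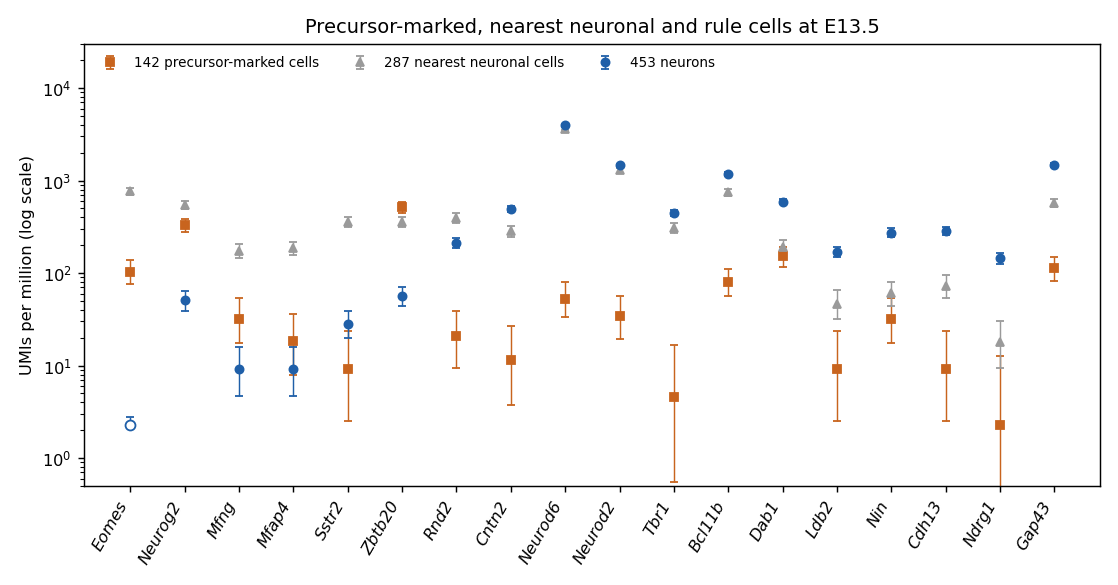
Summed level (CPM, log scale) of 18 genes in 142 precursor-marked cells (squares), 287 nearest neuronal cells (triangles) and the 453 neurons (circles), with exact Poisson 95% intervals that cover counting error only. Neurog2, Mfng and Sstr2 are highest in the nearest cells and Ldb2, Nin, Cdh13 and Ndrg1 in the neurons. Eomes, Neurod2 and Neurod6 took part in choosing the cells, and Eomes, at 0 in the neurons, is drawn as an open circle at the level of 3 UMIs.

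Neurons chosen by the same criteria at E15.5 were close to those at E13.5. Each age is 1 table, so age and library cannot be told apart. Of 9378 genes 91 (0.970%) were at least 2-fold higher at E13.5 and 267 (2.85%) at least 2-fold lower, with a median log2 ratio of -0.02. None of 18 deep-layer genes was higher and 1, Diap3 (3.80 and 16.4 CPM), was lower. Bcl11b was at 1169 CPM at E13.5 and 738 CPM at E15.5 (1.58-fold, 1.49 to 1.68), Sox5 at 899.8 and 626 CPM (1.44-fold, 1.34 to 1.54) and Tbr1 at 449 and 306 CPM (1.47-fold, 1.33 to 1.62). Fezf2 was at 554 and 592 CPM (0.936-fold, 0.862 to 1.02). Tle4, by contrast, was at 113 and 219 CPM, 1.93-fold lower at E13.5 (1.63 to 2.31).

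Among the fixed lists, 2 of 16 newborn migrating neuron genes and 1 of 15 intermediate progenitor genes were higher and none lower. That intermediate progenitor gene was Nhlh1, which is also in the transcription factor list and is counted again there. Of 31 transcription factors outside the layer lists 5 were higher and none lower, among them Nhlh1 (47.1 and 11.2 CPM, 4.21-fold, 2.88 to 6.15), St18 (97.2 and 28.2 CPM, 3.45-fold, 2.69 to 4.41) and Nfia (906 and 450.1 CPM, 2.01-fold, 1.87 to 2.16). Rnd2, which acts in radial migration, was at 213 and 80.0 CPM (2.66-fold, 2.27 to 3.11). Dcc, the netrin receptor, was at 49.4 and 15.4 CPM (3.21-fold, 2.27 to 4.52), and Cntnap2 at 168 and 58.4 CPM (2.88-fold, 2.40 to 3.44). Vat1, Tmem176b and Clic1 were 2.57- to 3.61-fold higher. Nr4a2 was 2.88-fold lower (1.92 to 4.48) and Npy had 3 UMIs at E13.5 and 145 at E15.5 (12.7-fold lower, 4.27 to 62.4). Rule cells with 2 or more interneuron UMIs numbered 16 of 453 at E13.5 and 97 of 1674 at E15.5.

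Ribosomal and mitochondrial RNA rows took the extremes of this comparison. Rpl26 was 8.40-fold higher at E13.5 (6.76 to 10.5) and mt-Rnr2, the mitochondrial large ribosomal RNA, 3.71-fold (3.64 to 3.78). Rps3a2, Rpl36, Rps4x, Rpl41, Rps25 and Rps7 were 3.04- to 25.1-fold lower, together with Mir682, a row under the name of a microRNA locus, and Erh. Such genes have near-identical copies elsewhere in the genome, and how reads were shared among copies is not given in the sources used here, so these values are uncertain. Ribosomal protein and mitochondrial ribosomal RNA genes, counted by the start of their names, were 5 of the 91 higher and 20 of the 267 lower genes. Mir682 and Erh are not in these counts.

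By E17.5 the balance of layer genes was the reverse. Of 7091 genes 265 (3.74%) were at least 2-fold higher at E13.5 and 294 (4.15%) at least 2-fold lower, with a median log2 ratio of -0.01. Of 16 deep-layer genes 9 were higher at E13.5 and none lower (median log2 ratio 1.21), and of 16 upper-layer genes 1 was higher and 11 were lower (median log2 ratio -1.29). Bcl11b was at 1169 CPM at E13.5 and 161 CPM (139 to 186) at E17.5, 7.26-fold higher (6.24 to 8.48). Sox5 was at 899.8 and 128 CPM (7.02-fold, 5.92 to 8.36), Fezf2 at 554 and 111 CPM (4.98-fold, 4.13 to 6.04), Nfib at 3446 and 735 CPM (4.69-fold, 4.36 to 5.05) and Tbr1 at 449 and 154 CPM (2.91-fold, 2.46 to 3.45). Ptn was at 323 and 1790 CPM (5.53-fold lower, 4.99 to 6.16), Cux1 at 48.6 and 245 CPM (5.03-fold, 3.83 to 6.71) and Mef2c at 354 and 1038 CPM (2.93-fold, 2.63 to 3.27). Rorb, a gene of the fourth layer, was the upper-layer member that was higher at E13.5, at 75.2 and 32.1 CPM.

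**Figure D5:**
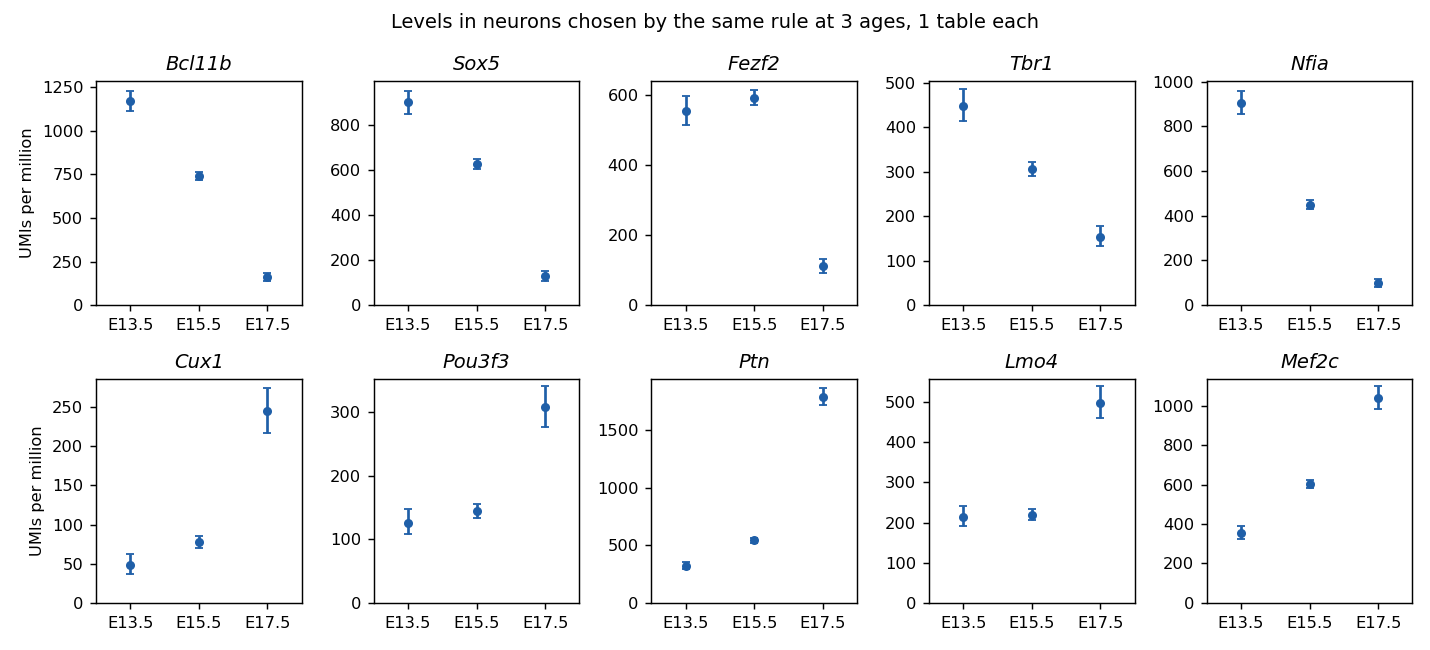
Summed level (CPM, vertical axis from 0) of 5 genes that were lower and 5 that were higher at E17.5 than at E13.5, in neurons chosen by the same criteria at E13.5, E15.5 and E17.5 (horizontal axis), 1 table per age, with exact Poisson 95% intervals. Bcl11b stands at 1169, 738 and 161 CPM, and Cux1 at 48.6, 77.6 and 245 CPM.

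Shares of cells with a UMI followed the same order. At 1000 UMIs per cell, Bcl11b was found in 59.0% of neurons at E13.5 (54.1 to 63.8%), 45.2% at E15.5 (42.7 to 47.6%) and 12.6% at E17.5 (9.76 to 15.9%). Tbr1 was found in 35.6%, 25.03% and 13.6%, and Sox5 in 51.5%, 41.1% and 9.90%. Fezf2 was as frequent at E15.5 (35.0%, 32.7 to 37.4%) as at E13.5 (33.4%, 28.9 to 38.2%), within the counting intervals, and was found in 5.98% at E17.5.

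Other genes higher at E13.5 than at E17.5 were St18, with 128 and 3 UMIs (38.4-fold, 12.8 to 189), Nxph4 with 77 and 4 UMIs (17.3-fold, 6.50 to 65.2), Ppp1r14a with 74 and 4 UMIs (16.7-fold, 6.24 to 62.7), and Mc4r at 134 and 10.1 CPM (13.3-fold, 7.41 to 26.2). Nfia was 9.18-fold higher (7.58 to 11.2), Vat1 8.91-fold (5.55 to 15.1) and Rnd2 7.64-fold (5.31 to 11.3). Nts, neurotensin, had 0 UMIs at E13.5 and 103 at E17.5 (at least 38.1-fold lower), Fam19a2 was 30.0-fold lower (14.96 to 70.4), Fblim1 20.8-fold (7.81 to 78.4), and Rpl38, Rpl36 and Mir682 7.06- to 7.997-fold. The last 3 are as uncertain as such rows were against E15.5. Ribosomal protein and mitochondrial ribosomal RNA genes, counted by name in the same way and without Mir682, were 5 of the 265 higher and 19 of the 294 lower genes against E17.5. Gabra2, a GABA receptor subunit, was at 26.6 and 187 CPM (7.05-fold lower, 4.92 to 10.4) and Nefl, the light neurofilament, at 11.4 and 65.8 CPM. Gap43 was at 1480 and 1340 CPM. All 3 measured interneuron genes were lower at E13.5, with 3 and 184 UMIs of Npy (68.1-fold, 23.0 to 333). Rule cells at E17.5 with 2 or more interneuron UMIs numbered 71 of 497, and erythroid genes summed to 1427 CPM there against 400.1 at E13.5, with medians of 625 and 291 CPM per cell and 1 cell at 372164 CPM at E17.5. The part of such cells and of free RNA in the values at E17.5 was not tested.

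The contrast between neurons and other cells was narrower at the later ages. At E15.5, 492 genes (4.74% of 10384) were at least 2-fold higher in rule cells than in other cells of the same table and 954 (9.19%) lower. At E17.5 the numbers were 47 (0.716% of 6567) and 262 (3.99%). Of the 592 genes higher at E13.5, 219 were also higher at E15.5, which is 37.0% of the 592 and 44.5% of the 492. At E17.5, 503 of the 592 were measured and 24 were higher (4.77% of the 503 and 51.1% of the 47). Of the 847 lower genes, 551 of 843 measured at E15.5 (65.4%) and 134 of 392 measured at E17.5 (34.2%) were lower again. Deep-layer genes were higher in rule cells in 10 of 20 and lower in 1 at E15.5 (median log2 ratio 0.998). At E17.5 they were higher in 0 of 14 and lower in 2 (median log2 ratio -0.17). Since 0.716% of all genes were higher at E17.5, 0 of 14 is near that share. The makeup of the other cells differs between tables, so these counts describe each table and were not tested against each other.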

How the data were processed

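The authors deposited 1 table of UMI counts per gene and cell for each age, not normalized, in a cortical and an all-cell version, and the submitters' processing notes name mm10. The aligner, the annotation, the filter on cells and any treatment of doublets, not given in the sources used here, are unknown, and no doublet caller was run. Cells were selected by the stated limits. UMIs were summed over each group and scaled to CPM. Genes with at least 50 UMIs over both groups entered a comparison, and a ratio of 2 or more either way was counted. Ratios carry exact conditional intervals, CPM exact Poisson intervals and shares exact Clopper-Pearson intervals, all at 95% and for counting error only. With 1 library at E13.5, and the 2 batches of E15.5 pooled in a table that does not tell them apart, cells were not treated as replicates and no p-value was computed. A group at 0 was set to 3 UMIs to give a lower bound in place of an interval. Shares of cells were also computed after thinning each cell to 1000 UMIs without replacement. The ratio calculation was tested on simulated Poisson counts, which hold counting error only and no spread between cells or libraries.

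Members, gene lists and comparisons were chosen with earlier results of these data known. Named genes were the 12 with the largest and the 12 with the smallest ratios (8 and 8 between ages) by the interval bound nearest to 1, at 50 CPM or more in the higher group. Rule genes, predicted genes, hemoglobins and sex-linked genes were left out of that ranking, and up to 4 members of each of the 28 lists were added. Genes named beyond these, those of the split by Bcl11b among them, were chosen after their values were seen. One listed gene is not reported here and was left out of its list. The comparison with E11.5 was not made gene by gene, since 9 cells gave 16595 UMIs. Promoters came from RefSeq on GRCm38.p6. Python 3.11.15, numpy 2.4.6, pandas 2.3.3 and scipy 1.17.1 were used.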

Additional observations from a re-analysis of the deposited data

Results flagged for a closer look

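Among the 777 E13.5 cells of at least 500 UMIs outside the cortical table, 40 passed the same criteria (5.15%, exact 95% interval 3.70 to 6.94%), a signal in cells that the comparisons did not use. Their median depth was 1284 UMIs, their median sum of Neurod2 and Neurod6 was 5, and 8 of them held 2 or more interneuron UMIs.

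For 3 genes the ratio of neurons to other cells pointed one way at E13.5 and the other way at E17.5, by at least 2-fold each time. Sparcl1, a secreted matricellular protein, had a log2 ratio of 2.11 at E13.5 (142 and 33.0 CPM), 1.24 at E15.5 and -1.88 at E17.5 (127 and 469 CPM). Trim9, a ubiquitin ligase of neurons, had 2.03 at E13.5 (61.5 and 15.04 CPM), 0.59 at E15.5 and -1.04 at E17.5 (43.0 and 88.5 CPM). Nlgn3, a postsynaptic adhesion gene, had 1.07 at E13.5 (24.3 and 11.6 CPM, 32 and 20 UMIs), 0.47 at E15.5 and -1.15 at E17.5 (21.1 and 46.9 CPM). In each gene the level in the neurons differed little between these ages while that in the other cells was higher at E17.5. The difference between ages was not tested, since E13.5 and E17.5 are 1 library each.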

How the results depend on the processing

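The share of neurons, 39.8% of the table, was 36.5% with at least 5 UMIs of Neurod2 and Neurod6. It was 31.8% with none and 47.1% with up to 3 of Sema3c, Unc5d and Neurod1, and 24.7% of the all-cell table. Among cells of 1000 or more UMIs it was 41.5% as counted and 44.9% when they were thinned to 1000 UMIs before selection. Against other cells, genes higher and lower numbered 1117 and 1833 with a minimum of 10 UMIs, 213 and 235 with 200, 1197 and 1615 at 1.5-fold and 215 and 461 at 3-fold. With a minimum of 10 UMIs the counts were 790 and 868 against the nearest cells, 2008 and 2006 against precursor-marked cells, 774 and 851 against E17.5, and against E15.5 3.14% and 6.37% of 12048 genes in place of 0.970% and 2.85%. With only the later columns of the E15.5 table, 1.99% of 7795 genes were lower at E13.5 in place of 2.85% of 9378. The labels do not say which columns belong to which E15.5 batch. Thinned to 1500 UMIs, the shares of neurons were 46.4% for Tbr1, 72.9% for Bcl11b, 40.5% for Fezf2, 67.0% for Sox5 and 15.4% for Pou3f2, all higher than at 1000 UMIs. The remaining 69 recomputed counts and shares, the 41.5% among them, stayed within 1.5 times of the reported count or within the counting interval. Values of single genes and lists were recomputed only for the neurons against the other cells of the E13.5 table, and not for the remaining comparisons. Of these 2015 recomputed values, 166 moved beyond their interval or tolerance. A reversal was counted only for genes past 2-fold and lists with a median past 2-fold, and none of these reversed direction. Changes of sign in the remaining genes and lists were not counted. Leaving out neurons with 2 or more interneuron UMIs, chosen after seeing the data, gave 581 and 848 genes against other cells and 285 and 265 against E17.5. The gene comparison with E11.5 and its alternatives were not run. No paired analysis was possible because E13.5 has 1 library, the columns of the E15.5 table carry no batch and no test was made. Counting error sets the limit for genes under about 50 UMIs, and the spread between embryos or libraries is unknown.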
